A study of Arabidopsis thaliana with 9 samples.

Results

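The 150 genes described here differed between the VISUAL and CC-M cultures and showed no comparable further difference between CC-M and CC-S. They were chosen on group means of log2 signal, from probe sets that name exactly 1 gene, with the brightest probe set standing for a gene. A gene was taken if its mean over the 9 arrays was at least 5, if CC-M differed from VISUAL by at least 1 (2-fold), and if CC-S differed from CC-M by less than 0.25. Of 16550 genes 7698 reached the level, and 95 rises and 55 falls met all 3 conditions, 1.95% of those 7698. All 9 arrays and every comparison between the groups entered the choice. The differences of the members, their standard errors and intervals, and the counts of members called in a fit over all probe sets are therefore descriptions, and none of them is a test of the members.

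The arrays come from wild-type Arabidopsis thaliana, ecotype Col-0. Cotyledons of seedlings 6 days old were held for 48 hours in VISUAL medium, which contained the auxin 2,4-D at 1.25 mg per litre, the cytokinin kinetin at 0.25 mg per litre and bikinin, an inhibitor of GSK3-type kinases, at 10 µM. They then went into medium for companion cell induction and were sampled after 96 hours. The groups are VISUAL, labelled as not inducing companion cells, CC-M, labelled as inducing them moderately, and CC-S, labelled as inducing them strongly, with 3 arrays each, numbered 3, 4 and 5. The labels word the treatment alike for all 9 samples, so the sources used here do not tell what set the media of the groups apart. They do not say either whether the arrays of a group stand for separate cultures, so the spread given below may be technical.

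VISUAL is a culture in which bikinin blocks the kinases that hold back vascular differentiation, so that mesophyll cells of the cotyledon turn into xylem vessel and phloem cells. VISUAL-CC extends it to companion cells, which stay nucleated beside the enucleate sieve elements, supply them with proteins and load sugar for transport. A gene that has changed under moderate induction and stands at the same level under strong induction has a step-shaped profile, in contrast to a gene that follows the strength of induction.

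Of 36 marker genes listed for vascular, mesophyll, stomatal and epidermal cells, 15 were measured and 0 were members. The 1 measured companion cell marker, the MYB-type factor gene SAPL, was higher in CC-M than in VISUAL by 2.12 on the log2 scale and higher again in CC-S by 0.92, outside the band of 0.25. Some markers of other cell types differed at the same step, and others hardly did. The 3 measured xylem vessel markers, the xylan synthesis genes IRX15, IRX10 and IRX15-L, had CC-M minus VISUAL of -1.51, -0.89 and -0.65 and CC-S minus CC-M of -0.40, -0.13 and -0.23. The phloem parenchyma sugar exporter gene SWEET11 had 1.32 and then 1.02. Of the genes listed for procambium, the peptide genes CLE44 and CLE41 had 0.83 and 0.56 and then -0.06 and 0.05. That listing does not say which cells express the peptide genes. LHW, also listed for procambium, had 0.10 and then 0.40, and the stomatal gene FAMA had -0.11 and then -0.35. The listed genes SWEET13, MOL1, SPCH and MUTE were measured with means below the required level. The part of these cell types in the members' values was not tested. SUC2, the sucrose loader that usually defines companion cells, was not analysed here. The arrays measured whole cultures, so fewer cells of a type and less RNA per cell cannot be told apart. Array medians ran from 4.71 to 4.90, and the lowest correlation between arrays of a group was 0.982.

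The members are a minority of the genes that changed at the first step. Among the genes at the required level, 264 were higher in CC-M than in VISUAL by at least 1. Of these, 95 (36.0%) stayed within the band, 130 (49.2%) were higher again in CC-S by 0.25 or more, and 39 (14.8%) came back by 0.25 or more. Of the 203 genes lower by at least 1, 55 (27.1%) stayed within the band, 112 (55.2%) were lower again and 36 (17.7%) came back. Of all 7698 genes 74.9% lay within the band. These shares come from the values that chose the members and carry no test.

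**Figure D1:**
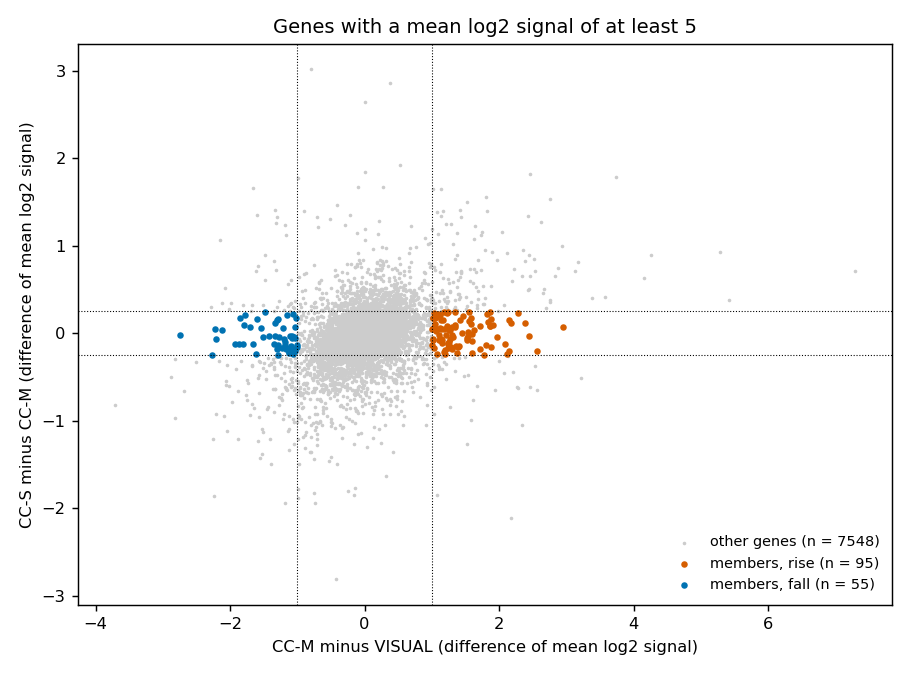
Each point is a gene with a mean log2 signal of at least 5, placed by its difference between CC-M and VISUAL (x axis, log2) and between CC-S and CC-M (y axis, log2), with dotted lines at the thresholds of 1 and 0.25. The 95 rises and 55 falls fill the right and left arms of the central band, and 130 other genes lie above the band on the right and 112 below it on the left.

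Most members changed modestly. Among the rises, CC-M minus VISUAL ran from 1.001 to 2.94 with a median of 1.30, with 60 members under 1.5, 25 from 1.5 to 2 and 10 at 2 or more. Among the falls it ran from -2.74 to -1.004 with a median of -1.27, with 38, 12 and 5 members in the same classes of size. Against VISUAL, CC-S gave nearly the same medians, 1.31 for the rises and -1.32 for the falls. The standard error of either difference had a median of 0.17 over the rises and 0.19 over the falls.

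How the arrays fell follows from the rule and is given as a description. The 3 CC-M values lay wholly above the 3 VISUAL values in 94 of 95 rises, where 23.2% of the 7698 genes did so, and wholly below in 53 of 55 falls, where 21.0% did. Limma, a linear model fitted to all 38408 probe sets, called (adjusted p under 0.05) 93 of the rises (12% of the 7698 genes) and 53 of the falls (9.72%) between CC-M and VISUAL. Between CC-S and VISUAL the arrays did not overlap in 95 rises (27.6% of the genes) and 55 falls (26.2%), and limma called 94 (18.5%) and 54 (17.1%). Nothing is read from these counts, because the rule used both contrasts. The exceptions at the first step were the rises AT1G62660 and AT3G20370 and the falls AT1G58070 and AT1G66690, with standard errors from 0.34 to 0.60, and of these AT3G20370 did not overlap. CC-S and CC-M did not overlap in 10 of 95 rises and 4 of 55 falls, against 26.3% of all genes. That count too follows from the band, and limma called few genes there in any case, 0.026% as higher and 0.013% as lower at this level and 0.0208% of all probe sets.

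The width of the intervals shows how precisely the second step of a member was measured. Because the band chose small second steps on the same arrays, the intervals set no limit on the true step. The 95% interval of CC-S minus CC-M included 0 in 94 of 95 rises and in 55 of 55 falls. It lay within 0.5 of 0 on either side in only 37 rises and 16 falls, and within 1 in 91 rises and 54 falls. A further change as large as 50% of the first step lay inside the interval for 15 rises and 19 falls, and one as large as the first step itself for 0 rises and 1 fall, AT1G58070. The 1 rise whose interval did not include 0 was AT3G21600, higher in CC-S by 0.24 (0.02 to 0.47).

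Among the rises, AT1G65845 had the largest difference. Its log2 signal was 6.17, 6.46 and 6.45 in VISUAL, 9.46, 9.001 and 9.44 in CC-M and 9.49, 9.36 and 9.25 in CC-S. The CC-M and CC-S arrays interleaved, and the lowest of them stood well above the highest VISUAL array. CC-M was 7.69-fold above VISUAL (log2 difference 2.94, SE 0.14), and CC-S minus CC-M was 0.07, with an interval from -0.25 to 0.39.

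Next in size among the rises that met the rule whichever array was left out was AT1G30720, with 6.58, 6.41 and 6.07 in VISUAL, 8.88, 8.67 and 8.84 in CC-M and 8.48, 8.86 and 8.97 in CC-S. Its fold of CC-M over VISUAL was 5.44, and CC-S minus CC-M was -0.03. AT5G24230 had the lowest standard error of the 10 rises of 2 or more. Its VISUAL values were 5.33, 5.26 and 5.54, its CC-M values 7.61, 7.49 and 7.57 and its CC-S values 7.74, 7.69 and 7.59. A step of 2.18 (SE 0.10) was followed by one of 0.11, with an interval from -0.11 to 0.33. AT5G50890, AT1G61660, AT5G02540, AT5G44720, AT4G02360, AT5G67385 and AT1G09390 behaved alike, with CC-M minus VISUAL between 1.55 and 1.91 and CC-S minus CC-M between -0.09 and 0.14. None of these genes has a name beyond its locus tag in the sources used here.

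The largest fall was that of AT1G35710. Its log2 signal was 7.25, 7.80 and 7.44 in VISUAL, 5.14, 4.36 and 4.79 in CC-M and 5.12, 4.23 and 4.89 in CC-S. The CC-M and CC-S arrays covered almost the same range, and CC-M was 6.67-fold below VISUAL (log2 difference -2.74, SE 0.28), with CC-S minus CC-M at -0.02. Its CC-M mean of 4.76 lay under 5, as did those of 9 falls in all, and 21 rises had a VISUAL mean under 5, so these members reached the level through the groups where they were high. The table has no detection call, so how far such low values lie above background is not known. The interval of that second difference was wider here, from -0.64 to 0.61.

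AT5G42830 was at 10.51, 10.84 and 10.52 in VISUAL, 8.65, 8.24 and 8.29 in CC-M and 8.58, 8.41 and 8.31 in CC-S. AT4G16190 was the most precisely measured of the large falls, at 10.96, 10.73 and 10.92 in VISUAL, 8.91, 9.09 and 8.997 in CC-M and 8.78, 8.94 and 8.90 in CC-S. For it a step of -1.87 (SE 0.08) was followed by one of -0.12, with an interval from -0.32 to 0.07. AT4G37030 and AT4G38560 had CC-M minus VISUAL of -2.21 and -2.12, and AT5G07800, AT5G44005, AT1G05170 and AT2G47500 had CC-M minus VISUAL between -1.86 and -1.42. The VISUAL arrays of AT4G38560 were spread widely, at 6.09, 7.50 and 6.48.

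**Figure D2:**
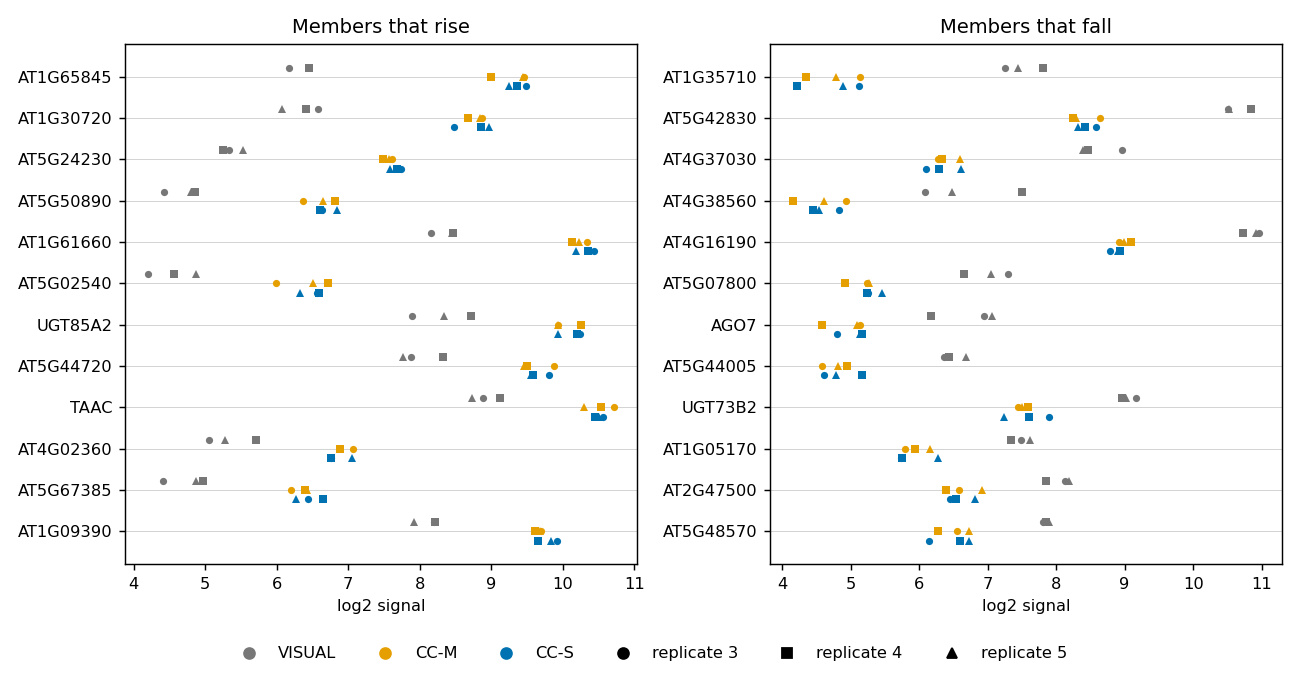
Log2 signal on each of the 9 arrays (x axis) for the 12 largest rises and 12 largest falls among members that stayed members when any 1 array was left out (colours: groups, symbols: replicate numbers). In every row the VISUAL arrays stand apart and the CC-M and CC-S arrays share one range, as for AT1G65845, with VISUAL at 6.17 to 6.46 and the other arrays at 9.001 to 9.49.

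Of the 150 members 28 carry a name that says something of their product, 19 rises and 9 falls. The other 76 rises (80.0%) and 46 falls (83.6%) are known here by locus tag only, close to the 85.1% over all genes at that level. The named members are described by role below. They were picked for having a name, after the values were known, and their order stands for no tested theme.

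WRKY22 and WRKY29 encode transcription factors that act at the end of the kinase cascade set off by bacterial flagellin. WRKY29 was at 6.01, 6.31 and 6.43 in VISUAL, 8.03, 8.49 and 8.48 in CC-M and 8.03, 8.23 and 8.39 in CC-S. Its CC-M mean was 4.24-fold above VISUAL, and CC-S and CC-M overlapped. WRKY22 was at 5.92, 6.05 and 6.22 in VISUAL, 7.22, 7.29 and 7.84 in CC-M and 7.30, 7.25 and 7.32 in CC-S, a fold of 2.61.

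Of 7 measured genes with a WRKY name 5 reached the level. Beside these 2, WRKY6 had a difference of 0.52 between CC-M and VISUAL (limma adjusted p = 0.00409), and WRKY20 and WRKY47 had 0.15 and 0.03 (limma adjusted p = 0.283 and 0.88). WRKY47 was higher in CC-S than in CC-M by 0.57. WRKY41, below the level with a mean of 4.68, went the other way, at -1.66 (limma adjusted p = 0.000522).

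ChiC, a class V chitinase gene, was at 6.15, 7.67 and 6.93 in VISUAL, 7.73, 8.99 and 8.65 in CC-M and 8.14, 8.66 and 8.47 in CC-S. The lowest CC-M array lay just above the highest VISUAL array, and replicate 3 was lowest in each group. PUB23, a U-box ubiquitin ligase gene that dampens immune responses, was at 5.86, 6.17 and 6.12, then 7.29, 7.22 and 7.34, then 7.93, 7.42 and 7.18 in the same order of groups. Its relatives PUB22 and PUB24 had CC-M minus VISUAL of 0.45 and 0.23 (limma adjusted p = 0.138 and 0.244). PUB54, a further gene of the 6 with a PUB name at the level, was lower in CC-M, at -2.82 (limma adjusted p = 0.000254), and its second step of -0.29 lay outside the band. NAI2, which is needed to form the endoplasmic reticulum bodies that store defence enzymes, was at 7.51, 8.88 and 8.40 in VISUAL, 10.26, 10.33 and 9.78 in CC-M and 10.61, 10.54 and 9.95 in CC-S. The spread within VISUAL (SD 0.69) was large, and the interval of its second difference ran from -0.52 to 0.998. RING1, a RING-type ubiquitin ligase gene linked to programmed cell death, was a fall, at 5.69, 6.22 and 5.70, then 5.03, 4.77 and 4.70, then 5.01, 4.58 and 4.77.

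NPF6.2 (AT2G26690) encodes a nitrate transporter known from leaf petioles. It was at 8.88, 9.17 and 8.66 in VISUAL, 10.60, 11.00 and 10.77 in CC-M and 10.74, 11.18 and 10.94 in CC-S, 3.69-fold higher in CC-M. NRT2.5, a high-affinity nitrate transporter gene of nitrogen-starved plants, was at 5.25, 5.26 and 5.87, then 6.79, 6.33 and 6.67, then 6.82, 6.89 and 6.53. In both genes the VISUAL arrays lay below all others.

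Of 14 measured genes with an NRT or NPF name 9 reached the level, and 4 of them were called higher in CC-M by limma and 0 lower, beside 12% and 9.72% of all genes at the level. Of these 4, NPF6.2 and NRT2.5 were chosen for that difference. The other two called, the glucosinolate transporter gene GTR2 and AT1G59740, differed by 1.40 and 1.53 at the first step and by 0.45 and 1.5 at the second, beside 0.17 for NPF6.2 and 0.15 for NRT2.5. Whether these second steps differ between the genes was not tested.

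SIR encodes sulfite reductase, which makes the sulfide that is built into cysteine, and APS4 encodes an ATP sulfurylase, the enzyme that activates sulfate. SIR was at 9.18, 9.87 and 9.19 in VISUAL, 10.84, 10.44 and 10.39 in CC-M and 10.79, 10.63 and 10.40 in CC-S, 2.21-fold higher in CC-M. APS4 only just met the rule, with a first step of 1.004, and it stayed a member in only 3 of 9 omissions of a single array. The other measured genes of sulfate assimilation, OASA2 and APS3, had CC-M minus VISUAL of 0.05 and -0.22, neither called by limma (adjusted p = 0.823 and 0.282).

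Glycosyltransferases of the UGT family, which attach sugar to hormones, flavonoids and foreign compounds, were split between the directions. UGT85A2 was at 7.89, 8.72 and 8.34 in VISUAL, 9.93, 10.26 and 9.93 in CC-M and 10.23, 10.20 and 9.93 in CC-S. GT72B1 (UGT72B1), which detoxifies chlorinated phenols, was at 3.21, 5.29 and 4.41, then 6.17, 5.97 and 6.09, then 5.75, 6.03 and 5.71. Its VISUAL arrays spanned more than 2 on the log2 scale, so its first step of 1.77 has an SE of 0.43.

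UGT73B2, a stress-induced flavonoid glucosyltransferase gene, was at 9.17, 8.96 and 9.02 in VISUAL, 7.44, 7.59 and 7.51 in CC-M and 7.89, 7.60 and 7.24 in CC-S. CC-M was 2.90-fold below VISUAL. UGT73B5, with CC-M minus VISUAL of -1.02, kept its membership in 3 of 9 omissions. Of 26 UGT genes at the level, limma called 4 higher and 7 lower in CC-M, members included, beside 12% and 9.72% of all genes at the level. UGT74B1 had a first step of 1.40 and missed the band at -0.28. UGT73B1 and UGT73B3 had first steps of -1.06 and -1.04 and missed the band at 0.295 and -0.33. UGT74F1 missed the first step at -0.996, with a second step of 0.001. Genes of this family are close in sequence, and cross-hybridisation was not analysed here.

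A hormone gene and further regulator genes were among the named members. Members known by locus tag only could not be placed by role, so how many regulators the set holds is not known. WES1 (GH3.5) encodes an enzyme that ties auxin to amino acids and so lowers its active level. It was at 6.63, 7.27 and 7.17 in VISUAL, 9.60, 9.21 and 9.12 in CC-M and 9.54, 9.77 and 9.32 in CC-S. CC-M was 4.88-fold above VISUAL, and the second step of 0.23 lay at the edge of the band, with an interval from -0.22 to 0.68. Of 4 GH3 genes at the level WES1, chosen for that difference, was the 1 called by limma between CC-M and VISUAL. Over all genes at the level 12% were called higher and 9.72% lower. GH3.3 was at 0.36, GH3.17 at 0.15 and GH3.1 at -0.70 (limma adjusted p = 0.0928, 0.754 and 0.0978).

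SMZ, an AP2-type repressor of flowering, was at 4.04, 4.42 and 4.39, then 5.35, 5.67 and 5.38, then 5.48, 5.58 and 5.48. AGO7, the argonaute protein that starts the making of trans-acting small RNAs and so times the change from juvenile to adult leaves, was on the falling side. It was at 6.95, 6.17 and 7.06 in VISUAL, 5.14, 4.59 and 5.09 in CC-M and 4.80, 5.17 and 5.14 in CC-S, 3.45-fold lower in CC-M, and it was the 1 measured gene with an AGO name. AtC3H14 (AT1G66810), a CCCH zinc finger gene known from secondary wall thickening, was at 6.35, 6.25 and 6.51, then 4.37, 4.11 and 4.85, then 4.01, 4.56 and 4.41. All 3 VISUAL arrays lay above 6, and no other array reached 5.

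TAAC, the carrier that brings ATP to the thylakoid, was at 8.88, 9.12 and 8.73 in VISUAL, 10.72, 10.54 and 10.30 in CC-M and 10.56, 10.46 and 10.50 in CC-S. Its second step was -0.01 (interval -0.29 to 0.27) after a first of 1.60. PSB27, which helps photosystem II to assemble and be repaired, was higher in CC-M by 1.06 (SE 0.15). CRR41, an assembly factor of the chloroplast NDH complex, had CC-M minus VISUAL of -1.28 (SE 0.31). Of the mesophyll markers, RCA and LHCB4.1 had CC-M minus VISUAL of 0.26 and -0.09.

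Wall, protein folding and metabolic genes complete the named members. GH9B7, of the GH9 family of cellulase-like enzymes that loosen or remodel walls, was at 8.63, 8.17 and 8.25, then 7.28, 7.18 and 7.40, then 6.89, 6.94 and 7.33. Limma called 3 of 4 GH9 genes at the level as lower in CC-M, beside 9.72% of all genes at the level, and GH9B7 was chosen for that difference. At the second step GH9B7 had -0.23, GH9B5 had -0.63 and GH9C2 came back by 1.26. FKBP65 (AT5G48570), a prolyl isomerase gene of heat tolerance, was at 7.81, 7.85 and 7.89, then 6.56, 6.28 and 6.73, then 6.14, 6.60 and 6.72. ACLA-2, a subunit of the ATP-citrate lyase that makes cytosolic acetyl-CoA, had CC-M minus VISUAL of -1.19 (SE 0.21). PIRIN2 (AT2G43120), known to alter lignin in xylem, was higher by 1.15 (SE 0.22). YLS5 (DJ-1e) was higher by 1.87 (SE 0.18), TET6, a tetraspanin gene, by 1.13 (SE 0.15), and the carboxypeptidase gene scpl29 by 1.03 (SE 0.16).

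**Figure D3:**
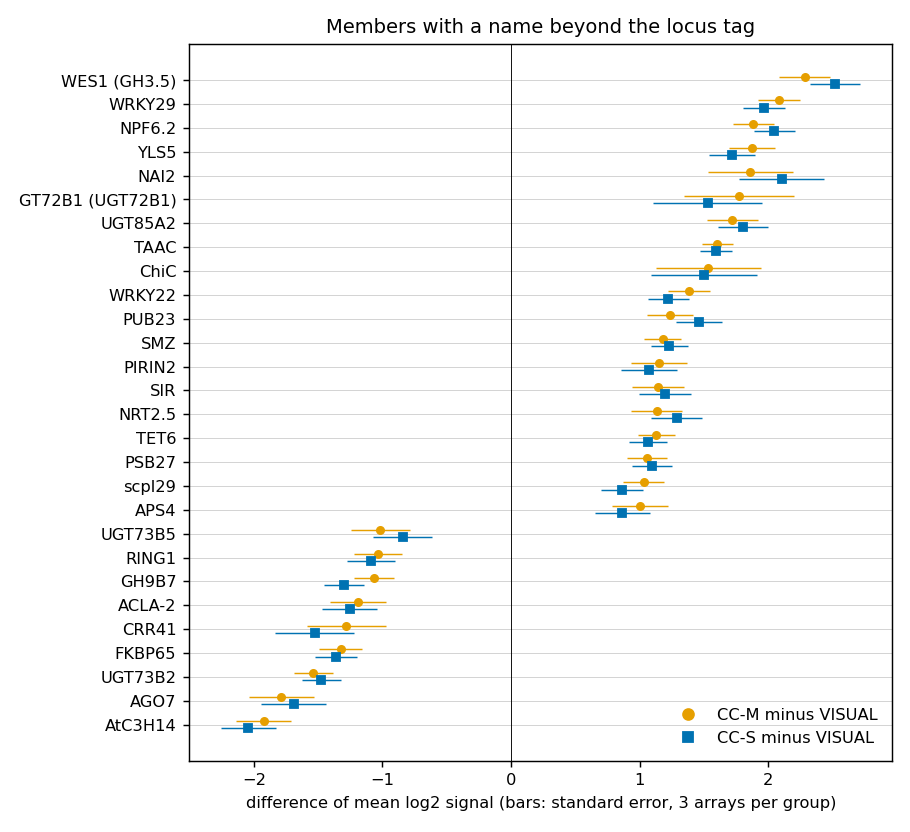
Difference of mean log2 signal from VISUAL (x axis) for the 28 members with a name beyond the locus tag, with circles for CC-M, squares for CC-S and bars for the standard error from limma. The 2 marks of a gene differ by less than 0.25 by the rule, for TAAC at 1.60 in CC-M and a second step of -0.01, and the bars are widest for GT72B1 (SE 0.43) and ChiC (SE 0.41).

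Read array by array, the values show the evenness over CC-M and CC-S that the rule asks of the means. The median over the 95 rises, relative to each gene's VISUAL mean, was 1.34, 1.37 and 1.34 on CC-M replicates 3, 4 and 5 and 1.38, 1.41 and 1.25 on CC-S replicates 3, 4 and 5. The genes that were higher again had medians of 1.80, 1.46 and 1.40 in CC-M and 2.37, 2.38 and 2.07 in CC-S. CC-S replicate 5 was thus the lowest CC-S array for both sets of rises.

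The 55 falls had medians of -1.35, -1.44 and -1.13 in CC-M and -1.52, -1.35 and -1.13 in CC-S. The arrays of both groups covered overlapping ranges, as the band of the rule requires of their means. VISUAL was not uniform either: its replicates 3, 4 and 5 had medians of -0.22, 0.21 and 0.07 over the rises and 0.11, -0.21 and 0.04 over the falls, so that replicate 4 stood nearest to the induced cultures in both.

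**Figure D4:**
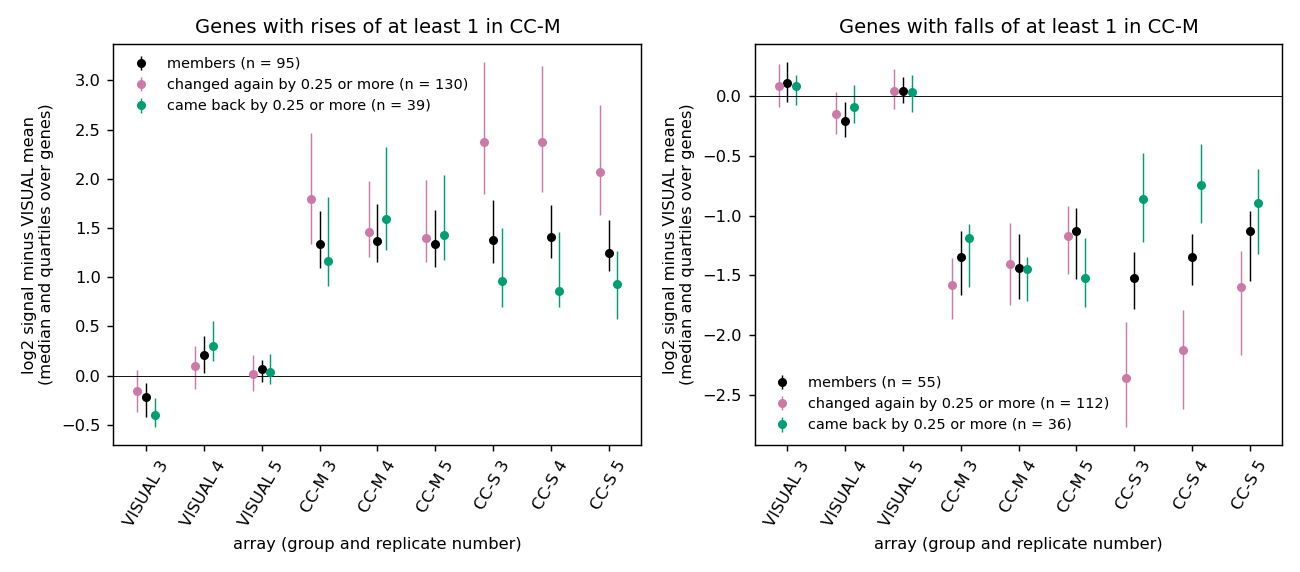
Median and quartiles over genes of the log2 signal minus the gene's VISUAL mean (y axis) on each array (x axis), for members and for the genes that changed again, or came back, by 0.25 or more between CC-M and CC-S. The medians of the 95 rises stay between 1.25 and 1.41 on all 6 induced arrays, while those of the 130 genes that were higher again reach 2.07 to 2.38 in CC-S. The group means of these arrays chose the 3 sets.

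For gene sets chosen anew by the same rule, the step was also read on arrays that took no part in that choice. The rule was applied to the 6 arrays of 2 replicate numbers, and the genes it took were read on the 3 arrays of the third number, for each number in turn. Between 77 and 140 rises and between 58 and 78 falls were chosen, of which 62 to 78 and 33 to 41 are among the members. These sets only partly overlap the members, which were chosen on all arrays. The held-out values therefore describe the rule and are no test of the members. Over the 3 held-out sets the median first step of the rises was 1.24 ± 0.27 (SD, n = 3) and their median second step 0.05 ± 0.11 (SD, n = 3). The falls had a first step of -1.18 ± 0.30 (SD, n = 3) and a second of -0.11 ± 0.03 (SD, n = 3).

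The median second step of the rises had no common sign over the held-out sets, at 0.12, 0.10 and -0.07. For the falls it had the direction of the first step in all 3 sets, at -0.13, -0.12 and -0.07. A median over genes does not show that single genes stayed level, and the sets were chosen on partly shared arrays. Genes chosen on the same 6 arrays as changing again had held-out second steps of 0.60 ± 0.20 (SD, n = 3) for rises and -0.60 ± 0.18 (SD, n = 3) for falls. Over all genes at the level the mean held-out medians were 0.006 and -0.004. A small median second step is thus also what all genes gave, and alone it does not set the genes chosen by the rule apart. Of the rises chosen by the rule, 53.6% to 69.2% lay within the band on the held-out arrays, and of the falls 39.7% to 62.3%, against 63.4% to 72% of all genes. For genes chosen by level and first step alone the shares were 34.6% to 40.2% of the rises and 23.4% to 39.4% of the falls. Those sets include the genes chosen by the rule. A held-out difference rests on 1 array per group, and the CC-M array is shared by both steps. Genes are not replicates, so no p is given.

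**Figure D5:**
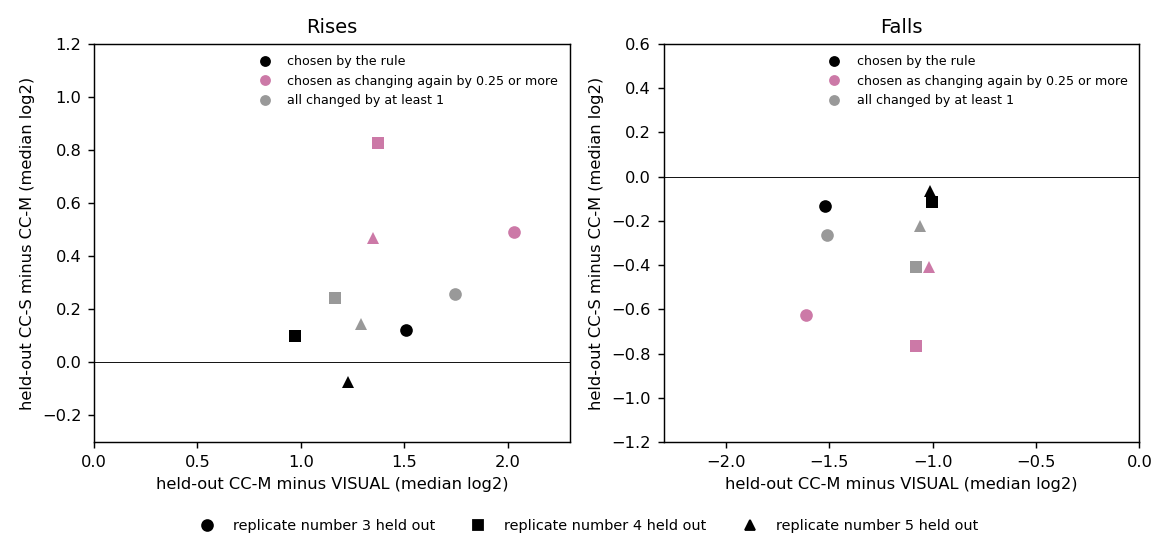
Median held-out difference between CC-M and VISUAL (x axis, log2) and between CC-S and CC-M (y axis, log2) for genes chosen on the other 6 arrays, with 1 symbol for each replicate number held out. Genes chosen by the rule lie between -0.07 and 0.12 on the y axis for rises and between -0.13 and -0.07 for falls, nearer to 0 than the genes chosen as changing again. The sets chosen by the rule only partly overlap the members and are no test of them.

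Leaving out each array in turn, 36 of 95 rises and 18 of 55 falls met the rule all 9 times, and 1 rise and 2 falls (APS4, UGT73B5 and AT2G11891) did so under 5 times. Without CC-M replicate 5 the rule took 85 falls, of which 44 are among the 55. With arrays centred on their medians, the split of 95 rises and 55 falls became 77 and 69, with 18 rises lost and 14 falls gained. Centring shifts every CC-M minus VISUAL by -0.072 and every CC-S minus CC-M by 0.005.

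At each threshold the members passed smoothly into other genes. The lowest means inside were 5.09 (SMZ) and 5.04 (AT5G58000), and the highest outside 4.92 (AT3G21352) and 4.89 (AT5G63180). The smallest first steps inside were 1.001 (AT1G25375) and -1.004 (AT2G11891), and the largest outside 0.995 (SD1-29) and -0.996 (UGT74F1). The second steps nearest the band's edge were 0.247 (AT1G47530) and -0.246 (AT1G13635) inside and 0.251 (OSM34) and -0.251 (AT1G53100) outside.

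By position, the rises lay on chromosomes 1 to 5 as 32, 14, 14, 12 and 23 genes and the falls as 16, 6, 6, 10 and 17, beside 1982, 1159, 1511, 1109 and 1816 genes at the level, and 0 members were among the 63 plastid-encoded genes. In the gene order of assembly TAIR10.1, 3 pairs of members were direct neighbours, all rises, while 2464 neighbouring pairs had both genes at the level. The pairs were AT1G51850 with AT1G51860, AT1G53430 with AT1G53440, and AT5G44720 with AT5G44730. In the first pair the first steps were 2.15 and 1.31, in the second 1.24 and 1.82 and in the third 1.63 and 1.38, and cross-hybridisation between neighbours was not analysed here. Among the genes that changed again, 1 pair of rises and 2 pairs of falls were neighbours.

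The names also place the members by function, as far as keywords in the names go. Of 19 named genes for transport at the level 3 were member rises (NPF6.2, TAAC and NRT2.5) and 0 falls, beside 1.23% and 0.714% of all genes at the level. The median CC-M minus VISUAL of these 19 was 0.48, beside 0.01 for all 7698 genes. That median includes the 3 members, which were chosen for this difference, and nothing is read from it. Of 31 genes with a transcription factor keyword in the name 2 were rises and 0 falls, with a median of 0.15. The rise SMZ, an AP2-type repressor, has no such keyword in its name and is not counted there. Of 60 named genes for detoxification and redox 2 were rises and 2 falls, and of 60 for protein turnover 2 were rises and 1 a fall. Named genes for the cell cycle, for RNA and ribosomes, for lipids and for kinases held 0 members among 5, 6, 10 and 13 genes. These classes cover only genes with a name, and 6551 of the 7698 genes, 76 rises and 46 falls among them, have none. Members of any class may lie among those, so a count of 0 is not read as an absence.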

How the data were processed

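Per the labels' protocols, biotin-labelled cRNA was made from total RNA and read on 1-colour Affymetrix arrays. The authors' deposited table holds log2 signals of 38408 probe sets on 9 arrays, from 0.0698 to 13.9. They were made with Affymetrix Expression Console, per the submitters' processing notes, and the sources used here do not name the summary method. Values were used as deposited. The table has no detection call, so background could not be read, and the number of arrays limits the precision. A pair of identical arrays was looked for and 0 were found.

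Probe sets were named through the platform annotation, with symbols from RefSeq's TAIR10.1 gene list, in which 16574 of 16722 probe sets naming 1 gene were found. The 759 naming several genes and 20927 unnamed ones were fitted and not named. Sequences and promoters were not analysed here.

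Standard errors, intervals and calls came from limma 3.58.1 in R 4.3.3 (lmFit, eBayes with an intensity trend, all 9 arrays, 1 mean per group, 2-sided, Benjamini-Hochberg over all probe sets, adjusted p under 0.05), which was tested on simulated data. Tables were made with Python 3.11.15 and pandas 2.3.3.

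The members, gene families and lists were chosen with earlier results of these data known. Beside the named members, genes named are the 12 largest rises and falls that met the rule under each omission of an array, the genes next to each threshold, and family relatives looked up after the members were known.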

Additional observations from a re-analysis of the deposited data

How the results depend on the processing

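The counts of members follow the thresholds. With a mean of at least 4 there were 106 rises and 86 falls, with 6 there were 71 and 35. A first step of at least 0.8 gave 168 and 100, and of at least 1.5 gave 35 and 17. A band of 0.15 left 57 and 31, and one of 0.5 took in 169 and 117. Group medians gave 87 rises and 62 falls, of which 70 and 36 are among the members, and quantile normalization gave 79 and 58, of which 77 and 54 are. Leaving out 1 array gave 83 to 129 rises and 40 to 85 falls, keeping 69 to 93 and 36 to 51 of the members. Restriction to genes in the reference table, added after seeing the data, changed neither count. Between CC-M and VISUAL limma called 4470 probe sets and 146 members. Leaving out 1 array gave 2450 to 4666 calls and 123 to 143 members called, with 2735, 2450 and 2940 calls without CC-M replicates 3, 4 and 5 and 2932 without VISUAL replicate 5. With the replicate number as a block there were 4479 calls, 3931 of them shared, and 146 members called. The numbers share no stated batch, so same-numbered arrays were not taken as pairs. Deviations correlated at -0.033 to 0.121 for same-numbered arrays and at -0.158 to 0.084 for arrays of different numbers. Whether the replicate number has a weak effect was not tested. Without the band in the choice, the held-out second step was 0.22 for rises and -0.30 for falls, and 0.26 and -0.28 with centred arrays. With the band in the choice and centred arrays it was 0.05 and -0.12. Planned promoter motif shares were not run. Because 3 arrays stand for a group, second steps under about 0.5 could not be resolved for most single members.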

Other observations

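Probe sets that do not name exactly 1 gene hold the same profile at a similar rate. Of 21686 such probe sets 10549 had a mean of at least 5, and 141 of them (1.34%) met the rule as rises and 86 (0.815%) as falls, beside 1.23% and 0.714% of the named genes. Their genes are not known here. In the small DJ-1 family, DJ1F had CC-M minus VISUAL of 1.04 and CC-S minus CC-M of 0.18, as its relative YLS5 had 1.87 and -0.16, but its mean of 4.31 kept it out of the set. DJ1D had differences of 0.03 and -0.02.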
